A study of Mus musculus with 24 samples.

Results

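The genes for translation initiation factors (eIF) and translation elongation factors (eEF) were compared between mouse embryonic fibroblasts (MEFs) that had lost Myc, Mlx or both. A gene was included where its name began with Eif1 to Eif6, Eef1 or Eef2, which gave 88 of 41710 genes. The eIF2 kinases Eif2ak1, Eif2ak2, Eif2ak3 and Eif2ak4, the genes Eif2s3x, Eif2s3y and Eif1ax, and names of pseudogenes were left out, so that 81 genes (the members) remained. Because Eif2s3x and Eif2s3y were outside the rule, the third subunit of eIF2 was not analysed here. Members were sorted by role: start codon selection and subunit joining (6 genes), eIF2 and its exchange factor eIF2B (7), the carriers Eif2a and Eif2d (2), eIF3 (14), eIF4 cap-binding and helicase factors (11), the exon junction helicase Eif4a3 with 2 relatives (3), eIF4E binders (4), eIF5A and eIF6 (3), elongation factors (7), enzymes that modify elongation factors (7) and further members (17).

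The study deleted Myc and Mlx from MEFs to learn how the Myc and Mlx networks of transcription factors share their target genes. Primary MEFs and MEFs immortalized with SV40 T-antigen were compared, and proliferation, metabolism and translation were among the subjects. Translation factors matter here because Myc is known as a regulator of protein synthesis.

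MEFs were grown from pooled embryos of day 14 to day 16, at least 6 per pool by the sample labels. The mice carried floxed alleles of Myc, Mlx or both, and a transgene for a Cre recombinase that 4-hydroxytamoxifen (4OHT) activates. Cells in 500 nM 4OHT lost the floxed gene and are called MycKO, MlxKO and DKO, the last lacking both, while cells with intact loci are called WT. By the paper, control cells received the ethanol vehicle alone, and immortalized WT cells were kept in 4OHT-free medium. The sample labels list the 500 nM protocol for every group, WT included. For the immortalized cells, MEFs were first transduced with a lentivirus encoding SV40 T-antigen, which inactivates p53 and Rb, and were selected with blasticidin. All cells grew in DMEM with 10% serum. Each of the 8 groups had 3 libraries, named here by the number in the column name, and the values are CPM, reads relative to the size of a library. The labels speak of triplicate sets of RNAs and the paper of biological replicates, but neither says whether these were separate cultures, so p-values measure only the spread between these libraries, which may be technical. Primary and immortalized libraries were never tested against each other.

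In initiation, eIF2 brings the initiator tRNA to the small ribosomal subunit, eIF2B reloads eIF2 with GTP, eIF3 holds the complex together, and the eIF4 factors bind the mRNA cap and unwind the leader. In elongation, eEF1A delivers aminoacyl-tRNAs, the eEF1B subunits reload it, and eEF2 moves the ribosome along the mRNA. Many initiation factors exist as paralogs whose proteins compete or specialize, and for this reason paralogs are described together.

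The knocked-out genes were examined first. A fold change is a difference of log2(CPM + 1) between group means, which understates changes of genes near 1 CPM, and a gene is called where its adjusted p in limma (Benjamini-Hochberg over all genes tested) is under 0.05. In primary cells Myc stood at 100, 89.8 and 91.8 CPM in WT, 85.6, 89.6 and 87.3 in MlxKO, 25.8, 26.8 and 26.8 in MycKO, and 21.6, 22.9 and 19.9 in DKO libraries. Its MycKO and DKO libraries lay below all WT and MlxKO libraries (log2 fold change -1.79, standard error 0.07, adjusted p = 5.95e-11 by limma in MycKO). The log2 fold change of Myc in primary DKO was -2.08, standard error 0.07, adjusted p = 4.24e-12. Primary Mlx stood at 26, 20.5 and 24.5 CPM in WT, 13, 13.5 and 14 in MlxKO, 21.1, 17.3 and 20.5 in MycKO, and 11.8, 12 and 9.73 in DKO libraries. All MlxKO and DKO libraries were lower than all WT libraries, while MycKO overlapped with WT (-0.76, standard error 0.11, adjusted p = 0.000405 in MlxKO). Values cover whole genes, and the excised exons were not measured apart, so transcripts without these exons would still be counted. For the primary cells the paper reports near-complete excision of each target gene, with comparable reductions of the proteins.

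In immortalized cells Myc stood at 48.1, 39.9 and 177 CPM in WT, 72.4, 82.8 and 79.5 in MlxKO, 17.2, 11 and 9.96 in MycKO, and 8.02, 5.77 and 4.25 in DKO libraries. WT4, the third WT library, was highest of all 12, and the MycKO and DKO libraries lay below the rest (-2.41, standard error 0.43, adjusted p = 0.000817 by limma in MycKO). Without WT4 the log2 fold change of Myc in MycKO was -1.75 (adjusted p = 2.33e-05). Immortalized Mlx stood at 25.1, 23.5 and 20.5 CPM in WT, 17, 12.4 and 12.1 in MlxKO, 27.8, 25.1 and 22.4 in MycKO, and 14.5, 18 and 17.7 in DKO libraries. All MlxKO and DKO libraries lay below all WT libraries (-0.71, standard error 0.16, adjusted p = 0.00471 by limma in MlxKO). In DKO the difference did not pass the threshold (-0.44, standard error 0.16, adjusted p = 0.0694), so loss of Mlx transcript is less clear in immortalized DKO than in MlxKO. For the immortalized cells the paper reports that qPCR and Western blotting showed excision of each gene.

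Immortalized WT4 stood apart across all genes tested. Its Pearson's r of log2(CPM + 1) was 0.9864 with WT2 and 0.9846 with WT3, against 0.9976 between WT2 and WT3, and at least 0.9953 in all other pairs of libraries of a group. These coefficients run across genes, not independent replicates. The immortalized counts, and the values of members with the largest changes, are therefore also given without WT4. Of the calls against WT, those of Eif3a, Eif3j2, Eif3m, Eif4e, Eif4g2 and Eif5b in MycKO ended without it, as did those of Eif3e, Eif3j2 and Eif4a2 in MlxKO and those of Eef1aknmt, Eef1b2, Eif2a, Eif2s2 and Eif4ebp2 in DKO.

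The markers of cell types moved between the groups, and their part in the result was not tested. Of 7 macrophage markers, 6 were tested in primary cells, and all 6 were lower in MycKO and in DKO and 0 called in MlxKO. The macrophage sum, with Csf1r most abundant, was 111 to 207 CPM in WT, 118 to 140 in MlxKO, 17.8 to 20.9 in MycKO and 34.7 to 70.8 in DKO. Summed fibroblast markers, 8 genes with Col1a1 most abundant, ran from 34487 to 37025 CPM in primary WT and from 37805 to 39854 in MlxKO. They ran from 44015 to 45981 CPM in MycKO, where 7 of 8 were higher, and from 46513 to 46864 in DKO. The sum of 4 endothelial markers was at least 13.5 CPM in every primary WT library and no higher than 7.98 CPM in any primary knockout library, a difference made up almost wholly by Kdr. Of the 2 tested, Kdr was lower in every knockout and Tek was called higher in DKO. Both epithelial markers tested were lower in every primary knockout, with Epcam at most 0.249 CPM. Primary neural markers, mostly Tubb3, summed to 70.4 to 86.3 CPM in MycKO and 45.3 to 55.5 in WT. They summed to 56.2 to 59.8 CPM in DKO and 32.9 to 40.1 in MlxKO. Primary skeletal muscle markers summed to 27.8 to 33.5 CPM in MlxKO and 46.2 to 53.5 in WT.

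In immortalized cells the fibroblast sum was 19246 to 27014 CPM in WT, 14901 to 18284 in MlxKO, 13562 to 17531 in MycKO and 21437 to 26321 in DKO. Macrophage markers summed to between 1.18 and 5.80 CPM there, with Adgre1 and Tyrobp at 0 in all libraries. Summed skeletal muscle markers, with Acta1 most abundant and Myod1 and Myog at 0, ran from 191 to 231 CPM in immortalized MycKO, from 85.5 to 90.9 in DKO, from 9.29 to 10.4 in MlxKO and from 13.2 to 22.1 in WT. The immortalized endothelial sum was 14.4 to 19.1 CPM in MycKO and 3.10 to 5.05 in WT. In WT4 the epithelial sum was 0.365 CPM, against 5.91 in WT2, 5.72 in WT3 and at most 1.60 in any knockout library. The neural sum was 18 CPM in WT4, against 3.40 in WT2 and 4.72 in WT3. It was 13.0 to 14.7 CPM in MycKO, 8.90 to 12.4 in MlxKO and 3.09 to 3.85 in DKO. Fewer cells of a type and less RNA per cell cannot be told apart.

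Of the 81 members, 59 reached 1 CPM in 3 or more of the 12 libraries of a table, the same 59 in both tables, and were tested. The other 22 were near 0. Among them were 16 copies of Eif1ad, of which 9 were at 0 in all 24 libraries and none passed 0.183 CPM. Eef1a2, the muscle and neuron paralog of Eef1a1, reached at most 0.199 CPM in primary and 0.110 CPM in immortalized libraries. Eif4ebp3, an eIF4E binder, reached 0.267 and 0.293 CPM in the same order. Eif4e1b, Eif4a3l1 and Eif4a3l2 were at 0 throughout, and the non-coding gene Eif2c5 did not pass 0.239 CPM.

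Levels of different genes were compared as CPM per kilobase of the Ensembl canonical transcript. In primary WT cells Eef1a1 was the most abundant member at 3929 CPM per kb, followed by Eef2 at 941, Eif5a at 524 and Eef1g at 479. Among the helicases Eif4a1 stood at 437 and Eif4a2 at 89 CPM per kb. Among the cap-binding genes Eif4e2 stood at 53.5, Eif4e at 25.8 and Eif4e3 at 4.6. Among the scaffolds Eif4g2 stood at 157, Eif4g1 at 128 and Eif4g3 at 25.7. Most eIF3 subunits lay close together, from 54.2 for Eif3g to 140 for Eif3e, with Eif3j1 at 11.9 and Eif3j2 at 22.2.

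Summed over all 81 members, the level was 21573 ± 376 CPM (SD, n = 3 libraries) in primary WT, 21027 ± 502 in MlxKO, 17177 ± 88.3 in MycKO and 15532 ± 346 in DKO. As shares of the summed CPM of a library these were 2.22%, 2.21%, 1.64% and 1.51%. All MycKO libraries (17272, 17098 and 17160 CPM) and all DKO libraries (15802, 15652 and 15142 CPM) lay below all WT libraries (21912, 21637 and 21169 CPM). In immortalized cells the sum was 21813 ± 2626 CPM in WT, 19348 ± 332 in MlxKO, 17222 ± 859 in MycKO and 16430 ± 751 in DKO. The immortalized shares were 2.11%, 2.11%, 1.68% and 1.59%, and the MlxKO share was not lower than that of WT. WT4 at 24754 CPM was the highest, and the MycKO and DKO sums lay below all 3 WT sums. Sums were not tested, and the elongation factors, led by Eef1a1, made up the largest share of each.

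**Figure D1:**
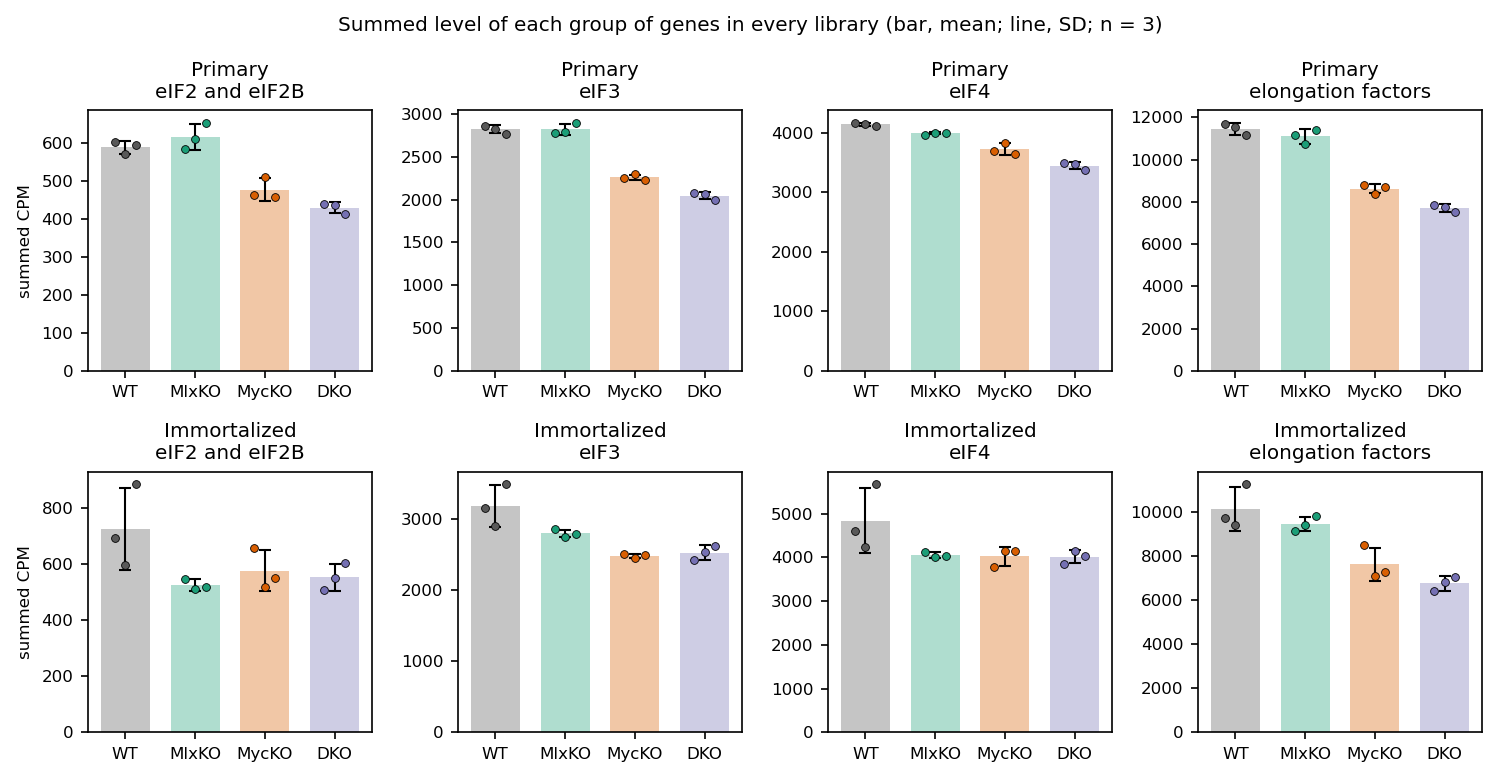
Summed CPM of eIF2 with eIF2B, eIF3, eIF4 and elongation factor genes in every library of primary (top) and immortalized (bottom) MEFs, with bars for the mean and lines for the SD of 3 libraries. Primary elongation factor sums went down in steps from a mean of 11468 CPM in WT to 8616 in MycKO and 7714 in DKO, and the immortalized WT libraries were spread widely.

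The comparison of primary MycKO with WT asks which translation factor genes differ after loss of Myc when Mlx is intact. By the paper, primary MycKO and DKO cells were growth-arrested, while WT and MlxKO cells proliferated, so growth state differs along with genotype. Of the 59 members tested, 38 were called, against 42.3% of all 13101 genes tested. Of these 37 were lower, against 21.9% of all genes, and 1 was higher, namely Eif4g3. The median log2 fold change of the members was -0.31, with a range of -0.73 to 0.28, while that of all genes was 0.00. edgeR and DESeq2 on the recovered reads each called 38. Primary DKO asks what the loss of both factors does, and 46 of 59 members were called, against 49.5% of all genes. In DKO 45 were lower, against 25.5% of all genes, and again only Eif4g3 was higher, with a member median of -0.40. All comparisons with WT share the same WT libraries, so their results are not independent of each other.

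In primary cells the elongation factors had the lowest median of the larger role groups (-0.44 in MycKO and -0.60 in DKO), and all 6 tested were called lower in each. eIF3 followed with 12 of 14 called in MycKO (median -0.35) and 13 of 14 in DKO (median -0.47). Of eIF2 and eIF2B, 6 of 7 were lower in MycKO (median -0.33) and 7 of 7 in DKO (median -0.36). The eIF4 factors were more mixed, with 3 of 10 lower and 1 higher in MycKO (median -0.09), and 6 lower and 1 higher in DKO. With library-total scaling most of these medians lay further from 0. Over all genes tested, 21.9% were called lower in MycKO and 25.5% in DKO. Differences between the role groups were not tested.

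**Figure D2:**
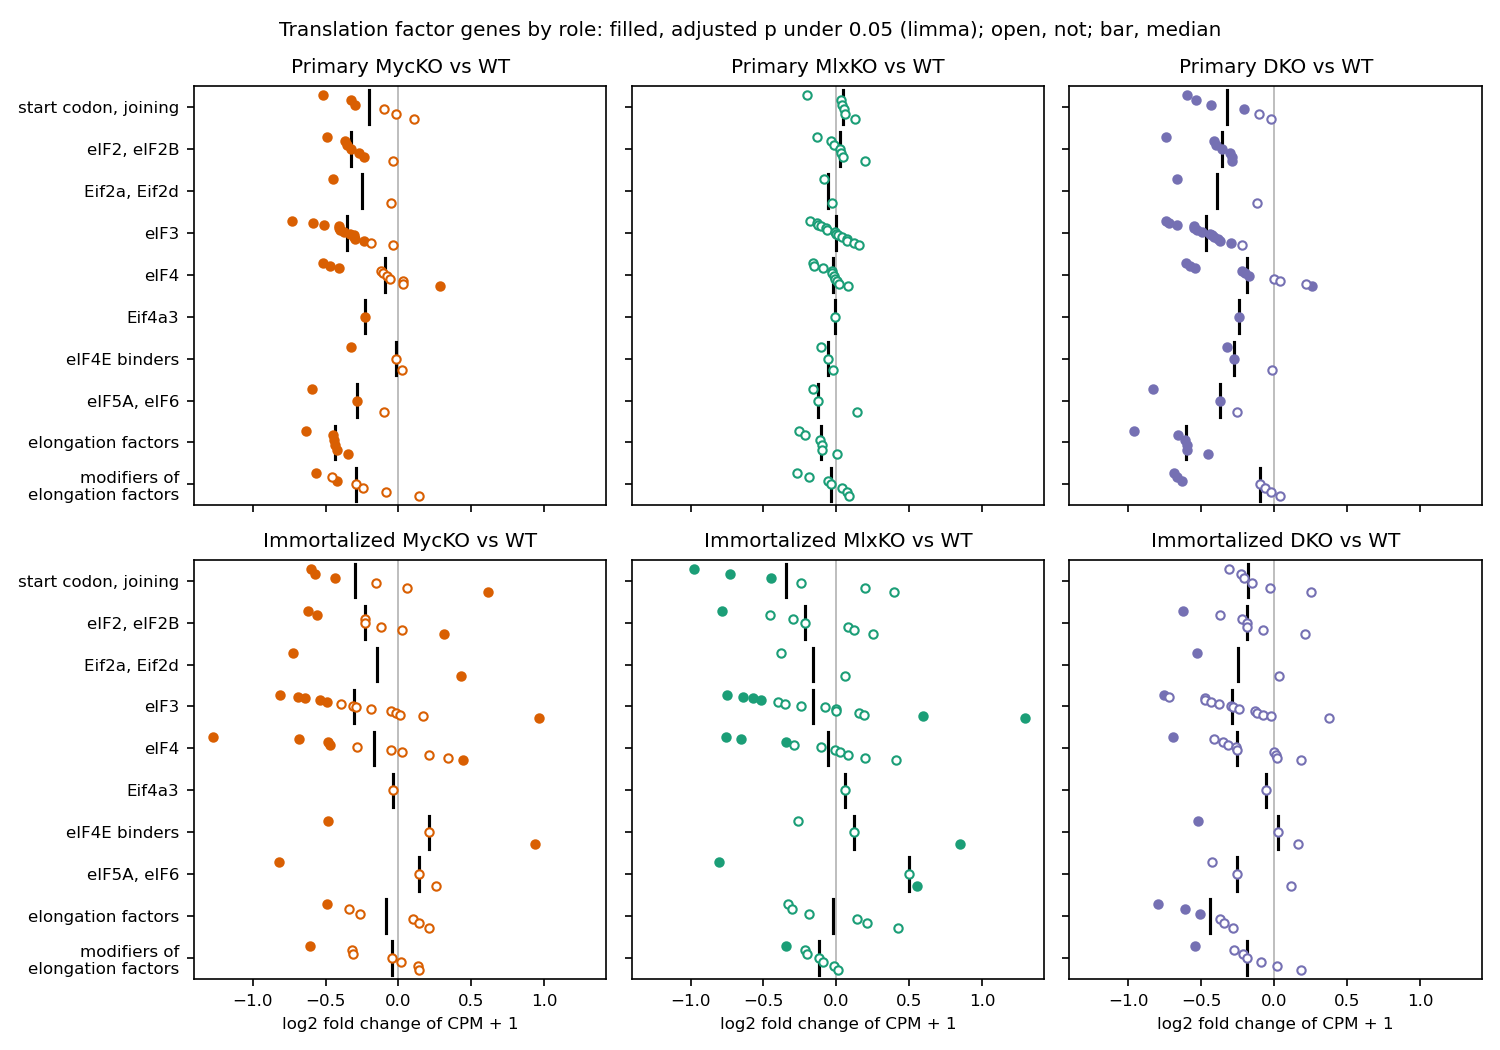
Log2 fold change of CPM + 1 against WT of each tested member (points) by role in primary (top) and immortalized (bottom) cells, with filled points for an adjusted p under 0.05 in limma, open points for the rest and bars for the median. In primary MycKO and DKO nearly all filled points lie left of 0. Immortalized filled points lie on both sides of 0 in MycKO and MlxKO, and all lie left of it in DKO.

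Among the start codon factors of primary cells, Eif1ad, whose product resembles eIF1A, had the largest change in MycKO. Its libraries held 30.9, 27 and 29 CPM in WT, 25.7, 25.6 and 24 in MlxKO, 23.2, 16.4 and 20.9 in MycKO, and 19.5, 19.1 and 18 in DKO. Libraries of all 3 knockouts lay below all WT libraries, with MlxKO nearest to WT (-0.51, standard error 0.11, adjusted p = 0.000879 by limma in MycKO and -0.60, adjusted p = 0.000196 in DKO). Eif1a, for the factor that scans for the start codon together with eIF1, held 223, 216 and 251 CPM in WT, 232, 254 and 266 in MlxKO, 179, 201 and 170 in MycKO, and 165, 163 and 147 in DKO. Here all MycKO and DKO libraries were lower than WT, and MlxKO overlapped with WT (-0.33, standard error 0.08, adjusted p = 0.00311 in MycKO and -0.54, adjusted p = 3.23e-05 in DKO), but its MycKO call ended with GC content and length taken out. Its partner Eif1 held 331, 323 and 335 CPM in WT, 315, 342 and 368 in MlxKO, 320, 323 and 334 in MycKO, and 310, 302 and 309 in DKO. The Eif1 libraries of MlxKO and MycKO overlapped with WT, all DKO libraries lay slightly lower, and neither was called (-0.10, standard error 0.06, adjusted p = 0.166 in DKO). The paralog Eif1b held 23.3, 23 and 20.8 CPM in WT, 23.8, 20.5 and 24.3 in MlxKO, 27.1, 20.6 and 25.1 in MycKO, and 21.8, 22.6 and 21.6 in DKO, with overlap between all groups and no call. Eif5, for the GTPase activator of eIF2, fell in MycKO (-0.30) and in DKO (-0.44), and Eif5b, for the joining factor, was called in DKO only (-0.21). The Eif5b call was kept in 6 of 11 settings, not by edgeR or DESeq2, and in 1 of 6 fits with a library left out.

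Eif2s1, for the eIF2 subunit whose phosphorylation limits initiation, had the largest change of its group in primary cells. It stood at 137, 137 and 136 CPM in WT, 121, 122 and 131 in MlxKO, 94.5, 106 and 92.1 in MycKO, and 83.2, 82.3 and 79.2 in DKO libraries. The 4 groups did not overlap, with WT highest, then MlxKO, MycKO and DKO (-0.49, standard error 0.06, adjusted p = 1.18e-05 by limma in MycKO and -0.74, adjusted p = 9.44e-08 in DKO). Eif2s2, for the second subunit, fell less (-0.24, standard error 0.08, adjusted p = 0.0194 in MycKO), and its MycKO libraries overlapped with WT. This call was kept in 2 of 6 fits with a library left out, and ended with only the groups compared or with GC content and length taken out. The eIF2B genes Eif2b1, Eif2b3, Eif2b4 and Eif2b5 were lower in MycKO and in DKO, with changes from -0.41 to -0.27. Eif2b2, for the beta subunit, was called in DKO only, where all libraries lay below WT (-0.30, standard error 0.08, adjusted p = 0.00396). Of the carriers that can replace eIF2, Eif2a held 67.9, 60.7 and 66.3 CPM in WT, 55.8, 67.2 and 60.5 in MlxKO, 45, 56.6 and 41.7 in MycKO, and 42, 39.8 and 40 in DKO. All MycKO and DKO libraries of Eif2a were lower than all WT libraries, while MlxKO overlapped with WT (-0.45, standard error 0.10, adjusted p = 0.00157 in MycKO and -0.66, adjusted p = 3.49e-05 in DKO). Eif2d was not called in any primary comparison.

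Within eIF3 the lowest fold changes in primary cells belonged to Eif3e, whose product binds eIF4G, and Eif3i. Eif3e fell in MycKO (-0.73) and in DKO (-0.72). Eif3i, for a WD-repeat subunit of the outer module, held 137, 129 and 155 CPM in WT, 132, 145 and 164 in MlxKO, 90.3, 92.9 and 95 in MycKO, and 81.3, 86.6 and 81.3 in DKO. All MycKO and DKO libraries lay below all WT and MlxKO libraries (-0.59, standard error 0.08, adjusted p = 2.06e-05 by limma in MycKO and -0.74, adjusted p = 1.3e-06 in DKO). The other 10 subunits called in MycKO were Eif3b, Eif3c, Eif3d, Eif3f, Eif3h, Eif3j1, Eif3j2, Eif3k, Eif3l and Eif3m, all lower, from -0.51 for Eif3j2 to -0.24 for Eif3k. Eif3a, for the largest subunit, was called in DKO, with all libraries below WT (-0.29, standard error 0.06, adjusted p = 0.000594), and not in MycKO (-0.04). Eif3g, for an RNA-binding subunit, was not called in primary cells, and its MycKO libraries ranged from 33.9 to 66.5 CPM.

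Of the cap-binding genes in primary cells, Eif4e held 128, 125 and 134 CPM in WT, 118, 131 and 134 in MlxKO, 87.3, 96.9 and 85.9 in MycKO, and 87.9, 85.3 and 80.7 in DKO. MycKO and DKO libraries all lay below WT and MlxKO, which overlapped (-0.52, standard error 0.07, adjusted p = 1.4e-05 by limma in MycKO and -0.60, adjusted p = 2.07e-06 in DKO). Eif4e2, whose product competes with eIF4E for the cap, held 87.4, 84.8 and 79.7 CPM in WT, 80.2, 76.7 and 89.7 in MlxKO, 95.1, 74.3 and 88.9 in MycKO, and 84, 85.7 and 82.2 in DKO, with overlapping groups and no call. Eif4e3, a further paralog, held 11.8, 10.6 and 13.3 CPM in WT, 13.8, 9.99 and 12.3 in MlxKO, 10.9, 12.7 and 9.46 in MycKO, and 16, 13.1 and 12.8 in DKO, with overlapping groups and no call. Among the helicases Eif4a1 held 802, 795 and 733 CPM in WT, 693, 679 and 719 in MlxKO, 569, 549 and 561 in MycKO, and 534, 520 and 508 in DKO. The 4 groups were separate for Eif4a1, with WT highest and DKO lowest (-0.47, standard error 0.06, adjusted p = 4.46e-06 in MycKO and -0.58, adjusted p = 3.64e-07 in DKO). Its paralog Eif4a2 held 214, 207 and 234 CPM in WT, 221, 240 and 232 in MlxKO, 187, 224 and 194 in MycKO, and 216, 233 and 224 in DKO, which overlapped, and it was not called. The helicase cofactor Eif4b was lower in MycKO (-0.41, standard error 0.05, adjusted p = 1.67e-05) and in DKO (-0.55), without overlap with WT.

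Of the genes for eIF4G scaffolds, which were not tested against each other, Eif4g1 in primary cells held 829, 858 and 779 CPM in WT, 765, 718 and 722 in MlxKO, 798, 759 and 809 in MycKO, and 711, 699 and 705 in DKO. MycKO overlapped with WT, while all MlxKO and DKO libraries lay below WT (-0.06, standard error 0.06, adjusted p = 0.436 by limma in MycKO and -0.22, adjusted p = 0.00421 in DKO). Eif4g2, for a scaffold that lacks the eIF4E site, held 1238, 1210 and 1331 CPM in WT, 1225, 1324 and 1285 in MlxKO, 1133, 1362 and 1094 in MycKO, and 1131, 1109 and 1055 in DKO. Its MlxKO and MycKO libraries overlapped with WT, and DKO lay below WT (-0.20, standard error 0.08, adjusted p = 0.0425), a call kept in 1 of 6 fits with a library left out. Eif4g3, the only member called higher, held 162, 155 and 156 CPM in WT, 164, 148 and 132 in MlxKO, 192, 193 and 191 in MycKO, and 181, 198 and 187 in DKO. All MycKO and DKO libraries lay above all WT and MlxKO libraries (0.28, standard error 0.07, adjusted p = 0.00366 in MycKO and 0.26, adjusted p = 0.00567 in DKO). Neither call of Eif4g3 was kept with GC content and length taken out, a setting added after the data were seen, which called 0 members higher in MycKO by limma and 2 others in DKO.

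Eif4a3, the helicase of the exon junction complex and not an initiation factor, held 97.2, 92.9 and 92.3 CPM in WT, 89.9, 92.2 and 98.5 in MlxKO, 79.8, 79 and 81.9 in MycKO, and 82.1, 77.8 and 78 in DKO in primary cells. Libraries of MycKO and DKO all lay below those of WT, with which MlxKO overlapped (-0.23, standard error 0.06, adjusted p = 0.00542 by limma in MycKO). Among the eIF4E binders Eif4enif1, for the transporter of eIF4E, held 67.3, 67.5 and 72.4 CPM in WT, 67.1, 66.3 and 70.3 in MlxKO, 53.4, 52.7 and 59 in MycKO, and 54.3, 54.3 and 56.3 in DKO. MycKO and DKO again lay below WT and MlxKO (-0.32, standard error 0.07, adjusted p = 0.000822 in MycKO and -0.32, adjusted p = 0.000648 in DKO). Eif4ebp1, for an eIF4E inhibitor that mTORC1 controls, held 108, 112 and 87.5 CPM in WT, 98.6, 89.2 and 107 in MlxKO, 120, 72.1 and 129 in MycKO, and 99.1, 98.2 and 106 in DKO, with overlap and no call. Eif4ebp2, its paralog, held 133, 129 and 136 CPM in WT, 119, 128 and 124 in MlxKO, 127, 137 and 129 in MycKO, and 109, 112 and 109 in DKO. Its MycKO libraries overlapped with WT, MlxKO lay just below WT, and DKO lay lowest (-0.27, standard error 0.06, adjusted p = 0.000728).

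Eif5a, for the factor that relieves stalled ribosomes, held 744, 745 and 663 CPM in WT, 617, 618 and 691 in MlxKO, 490, 410 and 530 in MycKO, and 408, 402 and 400 in DKO in primary cells. No MycKO or DKO library reached the lowest WT or MlxKO library (-0.60, standard error 0.08, adjusted p = 2.25e-05 by limma in MycKO and -0.83, adjusted p = 5.06e-07 in DKO). Its paralog Eif5a2 held 16, 15.7 and 21.3 CPM in WT, 22.5, 19 and 17 in MlxKO, 16.7, 17.9 and 14.3 in MycKO, and 16, 14 and 13.6 in DKO, with overlap in every group and no call. Eif6, which keeps the ribosomal subunits apart, fell in MycKO (-0.29) and in DKO (-0.37).

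Among the elongation factors Eef1b2, for the exchange subunit eEF1B alpha, had the largest change in primary cells. It stood at 470, 444 and 411 CPM in WT, 402, 388 and 433 in MlxKO, 287, 262 and 303 in MycKO, and 238, 221 and 219 in DKO libraries. WT, MycKO and DKO were separate in this falling order, and MlxKO overlapped with WT (-0.63, standard error 0.07, adjusted p = 2.18e-06 by limma in MycKO and -0.96, adjusted p = 1.81e-08 in DKO). Eef1a1 held 7163, 6974 and 7009 CPM in WT, 7068, 6799 and 7312 in MlxKO, 5309, 5262 and 5195 in MycKO, and 4777, 4700 and 4524 in DKO. The same order was seen, again with MlxKO among WT (-0.42, standard error 0.07, adjusted p = 8.55e-05 in MycKO and -0.59, adjusted p = 2.02e-06 in DKO). The remaining factors Eef1d, Eef1e1, Eef1g and Eef2 were lower in MycKO, from -0.45 to -0.35, and lower in DKO, from -0.66 to -0.45. Of the modifying enzymes, Eef1aknmt, for a methyltransferase of eEF1A, held 25.7, 22.5 and 26.4 CPM in WT, 24.3, 22.8 and 25.5 in MlxKO, 16.6, 15 and 17.9 in MycKO, and 16.4, 15.3 and 13.7 in DKO. Every MycKO and DKO library was lower than WT and MlxKO (-0.56, standard error 0.10, adjusted p = 0.000202 in MycKO and -0.68, adjusted p = 2.39e-05 in DKO). Eef1akmt1 was also lower in both, Eef1akmt4 was called in DKO, and Eef2k, for the kinase that inhibits eEF2, was not called.

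Primary MlxKO asks what the loss of Mlx does while Myc is intact. By limma 0 of 59 members were called, against 8.88% of all genes tested. At an unadjusted p under 0.05, 9 members would have been counted, against 3174 of all 13101 genes. edgeR called 1, Eef1g, and DESeq2 called 4, namely Eef1d, Eef1g, Eif4a1 and Eif4g1, all lower. With GC content and length taken out, a setting added after the data were seen, limma called 8, 2 higher and 6 lower. The median log2 fold change of the members was -0.02, from -0.27 to 0.19. Without the library WT3, limma called 5. A member called in MycKO and not in MlxKO is not thereby shown to differ between them, since MycKO was not tested against MlxKO.

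DKO against MycKO asks in primary cells what Mlx adds once Myc is lost. Here 8 of 59 members were called, against 21.5% of all genes, and all 8 were lower. They were Eif2s1, Eif2b2, Eif3a, Eif3j1, Eif4h, Eif4ebp2, Eef1b2 and Eef1akmt4, with log2 fold changes between -0.37 for Eef1akmt4 and -0.20 for Eif4h. Eef1b2, the eEF1B subunit, had the smallest adjusted p by limma, with all DKO libraries below MycKO (-0.33, standard error 0.07, adjusted p = 0.00269). The median over the 59 was -0.12, and 51 lay below 0. The count depended on single libraries: it was 18 without MycKO10, 5 without MycKO9 or DKO13, and 4 without DKO14 or DKO15. With GC content and length taken out, it was 20, of which 19 were lower and 1 higher.

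The interaction asks whether loss of Mlx acts differently with and without Myc, as (DKO - MycKO) - (MlxKO - WT). In primary cells 2 of 59 members were called, against 13.5% of all genes. Eif2s2, for the beta subunit of eIF2, held 270, 245 and 282 CPM in WT, 281, 307 and 324 in MlxKO, 215, 251 and 211 in MycKO, and 204, 207 and 193 in DKO. Its MlxKO libraries overlapped with WT only at their lowest value, and its DKO libraries lay below all MycKO libraries (interaction -0.35, standard error 0.11, adjusted p = 0.0373 by limma). Eif3c, for a core subunit of eIF3, held 513, 519 and 527 CPM in WT, 571, 582 and 581 in MlxKO, 407, 462 and 403 in MycKO, and 397, 400 and 361 in DKO. MlxKO lay above WT without overlap, and DKO below MycKO (-0.29, standard error 0.09, adjusted p = 0.041). Neither call was firm: 0 were called by limma when WT1, WT2, MlxKO6, MlxKO7, DKO13, DKO14 or DKO15 was left out, and 4 without MycKO10, against 6 with an unadjusted p under 0.05 in all libraries (3383 of all genes).

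In immortalized cells the comparison of MycKO with WT asks which members differ after loss of Myc in cells with T-antigen. The paper reports that these MycKO cells proliferated but were mostly tetraploid or pseudo-tetraploid. Here 25 of 59 members were called, against 48.0% of all 12880 genes tested. Of these 19 were lower, against 23.5% of all genes, and 6 were higher: Eif1b, Eif2b2, Eif2d, Eif3g, Eif4e2 and Eif4ebp1. The median was -0.19, with a range of -1.27 to 0.97. Without WT4 again 25 were called, now 12 higher and 13 lower, and 19 of these were shared with the first 25. With only the groups compared the count was 11, and without WT2 it was 16. Without MycKO9, in which several members differed from the other MycKO libraries, it was 24, of which 18 were shared.

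Immortalized MlxKO asks what Mlx does in such cells while Myc is intact. Loss of Mlx gave 17 of 59 members called, against 38.9% of all genes. Of these 13 were lower, against 19.9% of all genes, and 4 were higher: Eif3b, Eif3g, Eif4ebp1 and Eif6. This split depended on how libraries were scaled. Scaled to the total reads of each library it was 14 higher and 6 lower, and the median of all genes moved by 0.15. Without WT4 the count was 21, 11 higher and 10 lower, with 14 of the 17 kept, and it was 9 without MlxKO6 and 11 without WT2 or MlxKO7.

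Immortalized DKO asks what the loss of both genes does in such cells. It gave 9 of 59 members called, against 18.9% of all genes. All 9 were lower, against 8.51% of all genes: Eif2s2, Eif2a, Eif3e, Eif4b, Eif4ebp2, Eef1a1, Eef1b2, Eef2 and Eef1aknmt. The member median was -0.24, and 46 members lay below 0. Without WT4 only 5 were called, namely Eef1a1, Eef2, Eif3e, Eif3f and Eif4b. With only the groups compared 2 were called, and 4 without a filter on low values. The count was 3 without WT2, 14 without WT3, 1 without DKO13 or DKO14, and 4 without DKO15.

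By role, the immortalized start codon factors had 4 of 6 called in MycKO and 3 of 6 in MlxKO, with medians of -0.30 and -0.34 (-0.17 in MlxKO with library-total scaling). eIF2 and eIF2B had 3 of 7 called in MycKO (median -0.23) and 1 in MlxKO. eIF3 had 6 of 14 called in MycKO (median -0.30) and 6 in MlxKO (median -0.16, or 0.0110 with library-total scaling). eIF4 had 5 of 10 called in MycKO (median -0.17) and 3 in MlxKO. The elongation factors, where every tested gene was lower in primary MycKO, had 1 of 6 called in immortalized MycKO (median -0.09), 0 in MlxKO by limma and 3 in DKO (median -0.44). In MlxKO 1 elongation factor had an unadjusted p under 0.05. Over all genes tested, 48.0% were called in MycKO, 38.9% in MlxKO and 18.9% in DKO. These role counts hold calls of both directions. Among them Eif1b, Eif2b2, Eif3g and Eif4e2 were higher in MycKO, and Eif3b and Eif3g were higher in MlxKO.

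Among the start codon factors of immortalized cells, Eif1b held 17.9, 23.1 and 21.2 CPM in WT, 26.2, 26.6 and 29.6 in MlxKO, 41.6, 27.4 and 28.8 in MycKO, and 22.5, 25.3 and 26.7 in DKO. All MlxKO and MycKO libraries lay above all WT libraries, with a call in MycKO (0.61, standard error 0.16, adjusted p = 0.00819 by limma), and without WT4 the value was 0.63 (adjusted p = 0.00688). Eif1a held 359, 285 and 368 CPM in WT, 185, 147 and 178 in MlxKO, 277, 193 and 201 in MycKO, and 235, 298 and 337 in DKO. MlxKO and MycKO lay below all WT libraries, while DKO overlapped with WT (-0.98, standard error 0.17, adjusted p = 0.00154 in MlxKO and -0.60, adjusted p = 0.0137 in MycKO). Eif1 held 464, 421 and 498 CPM in WT, 335, 327 and 349 in MlxKO, 484, 374 and 392 in MycKO, and 412, 440 and 505 in DKO. Only its MlxKO libraries lay below all WT libraries (-0.45, standard error 0.12, adjusted p = 0.0142), and the call ended with library-total scaling. Eif5, the GTPase activator gene, was lower in MlxKO (-0.73) and MycKO (-0.57).

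Eif2b1, for the alpha subunit of eIF2B, held 34, 33.4 and 52.8 CPM in WT, 44.5, 40.1 and 39.6 in MlxKO, 22.3, 23.7 and 29.7 in MycKO, and 28.4, 30.8 and 31 in DKO in immortalized cells. All MycKO and DKO libraries lay below all WT and MlxKO libraries, of which WT4 was highest (-0.62, standard error 0.17, adjusted p = 0.00954 by limma in MycKO). Without WT4 its MycKO value was -0.41 (adjusted p = 0.0149), but with only the groups compared it was not called. Eif2a, the alternative carrier, held 106, 86.3 and 112 CPM in WT, 88.7, 71.2 and 73.4 in MlxKO, 77, 54.9 and 53.2 in MycKO, and 59.8, 70.2 and 80.7 in DKO. MycKO and DKO lay below WT, and MlxKO overlapped with WT (-0.72, standard error 0.17, adjusted p = 0.0039 in MycKO and -0.53, adjusted p = 0.0449 in DKO), and without WT4 the MycKO value was -0.65 (adjusted p = 0.00616). Eif2s2, for eIF2 beta, was called lower in all 3 knockouts, with log2 fold changes of -0.78 after loss of Mlx, -0.56 after loss of Myc and -0.62 after loss of both.

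Eif3g had the largest rise of the members in immortalized cells. It stood at 25.6, 39 and 34.9 CPM in WT, 65.2, 95.6 and 87.6 in MlxKO, 73.5, 60.7 and 60.9 in MycKO, and 47, 36.7 and 45 in DKO libraries. All MlxKO and MycKO libraries lay above all WT libraries, and DKO overlapped with WT (1.30, standard error 0.18, adjusted p = 0.000411 by limma in MlxKO and 0.97, adjusted p = 0.000989 in MycKO). Without WT4 the values were 1.34 (adjusted p = 9.47e-05) in MlxKO and 1.01 (adjusted p = 0.000513) in MycKO. Eif3c, Eif3e, Eif3j2 and Eif3m were called lower in MlxKO and in MycKO, from -0.81 for Eif3e to -0.52 for Eif3c. In MlxKO all 4 calls ended with library-total scaling, and those of Eif3e and Eif3j2 also without WT4. In MycKO those of Eif3j2 and Eif3m ended without WT4, and that of Eif3j2 was kept in 1 of 6 fits with a library left out. Eif3a was lower in MycKO (-0.49), but not called without WT4, and Eif3b higher in MlxKO (0.59).

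Of the cap-binding genes in immortalized cells, which were not tested against each other, Eif4e3 held 11.7, 14.2 and 11.4 CPM in WT, 10.5, 9.41 and 10 in MlxKO, 5.42, 4.06 and 4.22 in MycKO, and 9.04, 10.2 and 11.6 in DKO. Its MycKO libraries were lowest and separate from the rest (-1.27, standard error 0.15, adjusted p = 3.99e-05 by limma), and without WT4 the value was -1.33 (adjusted p = 1.04e-05). Eif4e2 held 49.1, 58.9 and 61.5 CPM in WT, 52.9, 64.4 and 62.1 in MlxKO, 92.3, 71.7 and 68.4 in MycKO, and 57.3, 53.5 and 59.6 in DKO. All MycKO libraries lay above all other groups (0.44, standard error 0.14, adjusted p = 0.0176). The Eif4e2 call was kept in 4 of 6 fits with a library left out, and ended with only the groups compared and with GC content and length taken out. Eif4e itself held 194, 176 and 271 CPM in WT, 155, 121 and 126 in MlxKO, 181, 133 and 144 in MycKO, and 138, 160 and 179 in DKO. MlxKO lay below all WT libraries and MycKO overlapped with WT (-0.65, standard error 0.17, adjusted p = 0.0122 in MlxKO and -0.47, adjusted p = 0.0418 in MycKO). Without WT4 the Eif4e value in MycKO was -0.29 (adjusted p = 0.121), and the call was kept in 2 of 6 fits with a library left out. This call also ended without a filter, with only the groups compared and with GC content and length taken out.

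Of the immortalized helicases Eif4a1 held 662, 682 and 853 CPM in WT, 678, 659 and 692 in MlxKO, 654, 557 and 586 in MycKO, and 549, 559 and 609 in DKO. MycKO and DKO lay below WT, MlxKO overlapped with WT, and no difference was called. Eif4a2 held 266, 246 and 269 CPM in WT, 235, 179 and 203 in MlxKO, 274, 225 and 257 in MycKO, and 229, 266 and 290 in DKO. Its MlxKO libraries lay below all WT libraries and the other groups overlapped (-0.35, standard error 0.13, adjusted p = 0.0479 by limma). This call was kept in 5 of 11 settings, not by edgeR, and in 1 of 6 fits with a library left out, and without WT4 the value was -0.32 (adjusted p = 0.0653). Eif4b, their cofactor, was lower in MycKO (-0.68, standard error 0.09, adjusted p = 0.000123) and in DKO (-0.69, standard error 0.09, adjusted p = 0.00053), both without overlap with WT, and both calls held without WT4. Eif4g1 held 624, 639 and 811 CPM in WT, 833, 980 and 924 in MlxKO, 663, 916 and 819 in MycKO, and 787, 696 and 616 in DKO. MlxKO lay above WT without a call, and the others overlapped (0.41, standard error 0.16, adjusted p = 0.0555). Eif4g2 held 2077, 1692 and 2483 CPM in WT, 1379, 1122 and 1177 in MlxKO, 1297, 1535 and 1596 in MycKO, and 1466, 1832 and 1684 in DKO. MlxKO and MycKO lay below all WT libraries (-0.75, standard error 0.17, adjusted p = 0.00484 in MlxKO and -0.49, adjusted p = 0.0314 in MycKO). The MycKO call was kept in 2 of 6 fits with a library left out and ended without a filter, with only the groups compared and with GC content and length taken out, and without WT4 the value was -0.35 (adjusted p = 0.0649). Eif4g3 held 80.9, 74.6 and 58.7 CPM in WT, 70.9, 72 and 73.5 in MlxKO, 79.9, 100 and 90.2 in MycKO, and 92.2, 78.5 and 72.3 in DKO, with overlap in every group and no call.

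Of the eIF4E binders in immortalized cells, Eif4ebp1 held 43.2, 56 and 37 CPM in WT, 61.5, 95.8 and 91.8 in MlxKO, 97, 84.8 and 78.3 in MycKO, and 61, 41.9 and 49.9 in DKO. MlxKO and MycKO lay above all WT libraries and DKO overlapped with WT (0.93, standard error 0.20, adjusted p = 0.00232 by limma in MycKO and 0.85, adjusted p = 0.00599 in MlxKO). Without WT4 the MycKO value was 0.80 (adjusted p = 0.00353). Eif4ebp2 held 146, 133 and 193 CPM in WT, 130, 136 and 122 in MlxKO, 90.4, 123 and 123 in MycKO, and 112, 109 and 103 in DKO. The MycKO and DKO libraries were below WT without overlap (-0.48, standard error 0.15, adjusted p = 0.0184 in MycKO and -0.52, adjusted p = 0.0303 in DKO). Of the fits with a library left out, 5 of 6 kept the MycKO call and 1 of 6 the DKO call, and both ended with only the groups compared.

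Eif5a2 held 64.8, 49.7 and 66.4 CPM in WT, 40.1, 31.3 and 30.9 in MlxKO, 30.1, 33.4 and 37.3 in MycKO, and 37.8, 50 and 45.9 in DKO in immortalized cells. MlxKO and MycKO lay below all WT libraries, and DKO overlapped with WT (-0.82, standard error 0.16, adjusted p = 0.00119 by limma in MycKO and -0.80, adjusted p = 0.00244 in MlxKO). Without WT4 its MycKO value was -0.74 (adjusted p = 0.00159). Eif5a held 330, 357 and 658 CPM in WT, 492, 676 and 654 in MlxKO, 565, 429 and 431 in MycKO, and 382, 332 and 362 in DKO. WT4 lay with the MlxKO libraries, far above the other WT libraries, so the groups overlapped and no change was called (0.50, standard error 0.23, adjusted p = 0.104 in MlxKO). Without WT4 the Eif5a value in MlxKO was 0.81 (adjusted p = 0.000915). Eif6 was called higher in MlxKO (0.55, standard error 0.16, adjusted p = 0.016), although the libraries overlapped with WT.

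Among the elongation factors of immortalized cells, Eef1b2 held 250, 254 and 320 CPM in WT, 202, 212 and 237 in MlxKO, 377, 171 and 180 in MycKO, and 129, 157 and 188 in DKO. MycKO9, the first MycKO library, was highest of all, and the DKO libraries lay below all WT libraries (-0.80, standard error 0.25, adjusted p = 0.0445 by limma). Without WT4 this was -0.68 (adjusted p = 0.0739), no longer called. Eef1a1 held 7156, 6755 and 8096 CPM in WT, 6460, 6191 and 6649 in MlxKO, 6044, 4704 and 4939 in MycKO, and 4356, 4916 and 5110 in DKO. All knockout libraries lay below WT, with MlxKO nearest to it (-0.49, standard error 0.18, adjusted p = 0.0379 in MycKO and -0.61, adjusted p = 0.0332 in DKO). With a library left out its MycKO call was kept in 3 of 6 fits and its DKO call in 2 of 6, and both ended without a filter and with only the groups compared. Among the modifying enzymes Eef2kmt, for the methyltransferase of eEF2, held 14.4, 10.4 and 12.4 CPM in WT, 10.5, 10.5 and 10.4 in MlxKO, 9.2, 7.52 and 6.7 in MycKO, and 8.08, 12.1 and 10.2 in DKO. MycKO lay below all WT libraries and the others overlapped with WT (-0.60, standard error 0.17, adjusted p = 0.0128), and without WT4 its value was -0.60 (adjusted p = 0.0144). The Eef2kmt call ended without WT2 or MycKO11 and with only the groups compared.

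**Figure D3:**
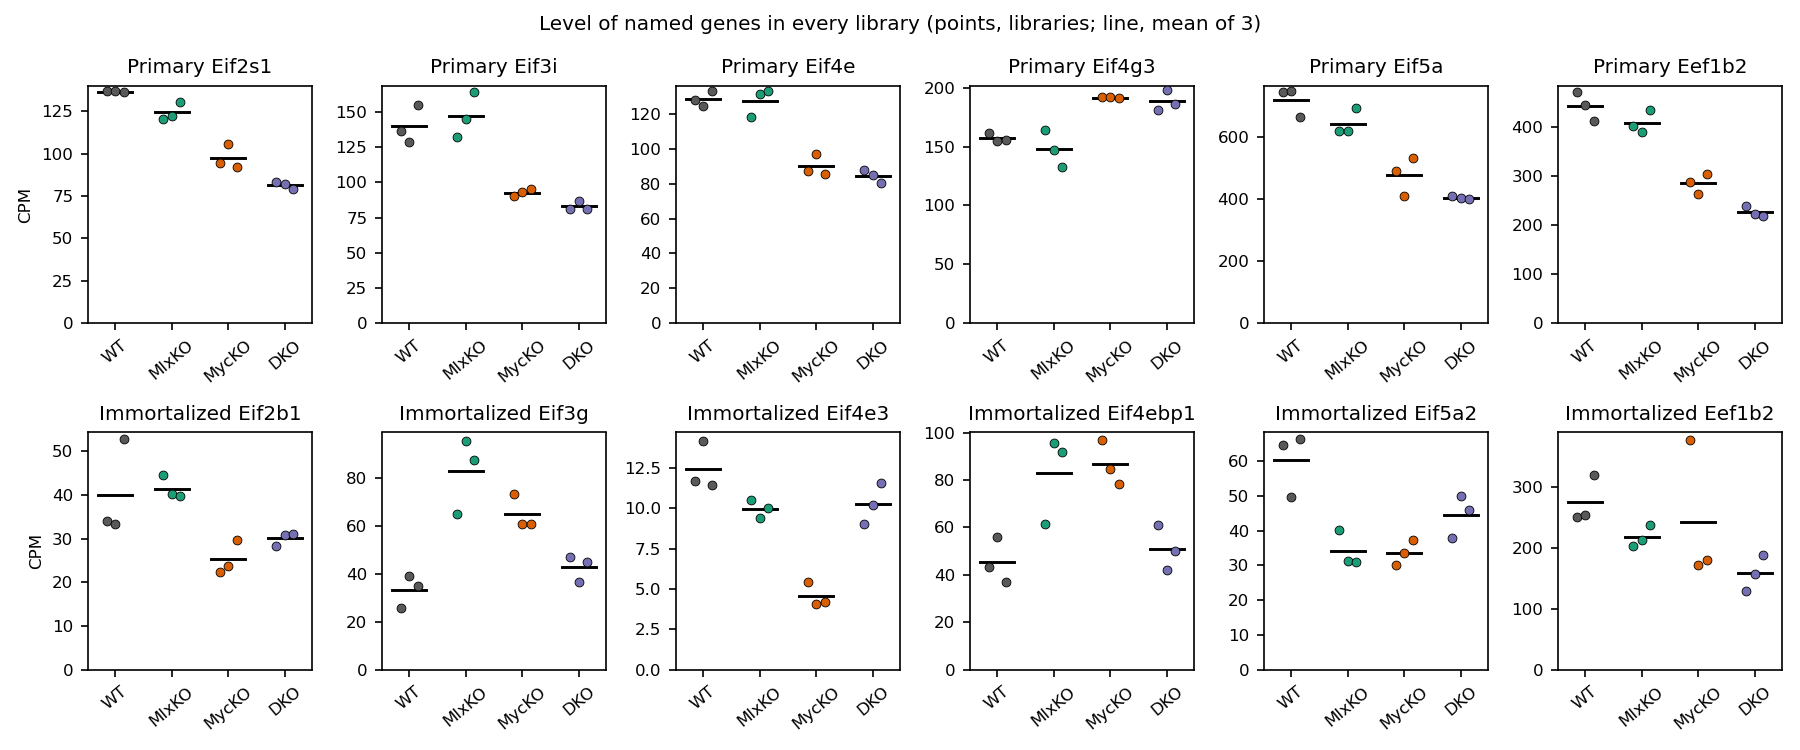
CPM of 6 named genes in every library of primary (top) and 6 in immortalized (bottom) cells, with points for libraries and lines for the mean of 3. Primary Eif4g3 lies higher in MycKO and DKO than in WT while its neighbors lie lower, and immortalized Eif3g and Eif4ebp1 are high in MlxKO and MycKO but not in DKO.

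In immortalized cells DKO against MycKO asks what the loss of Mlx adds to the loss of Myc. It gave 6 of 59 members called, against 29.4% of all genes, 2 higher and 4 lower. Eif4e3 (1.02, standard error 0.15, adjusted p = 0.0003 by limma) and Eif3c (0.45) were higher in DKO. Eif4ebp1, the eIF4E inhibitor gene, was lower without overlap (-0.77, standard error 0.20, adjusted p = 0.0115), as were Eif3g (-0.59), Eef1g (-0.44) and Eif4e2 (-0.43). The count was 3 without MycKO9, 1 without DKO14 and 3 without DKO15. With only the groups compared it was 11, 4 higher and 7 lower.

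The interaction in immortalized cells was called for 21 of 59 members, against 47.4% of all genes. Of these 11 were above 0 and 10 below. Scaled to the total reads of each library the split was 6 above and 18 below 0, and the median of all genes moved by -0.16. With GC content and length taken out, a setting added after the data were seen, it was 11 above and 2 below 0. Of the 10 negative calls only those of Eif3g and Eif4ebp1 were kept, and of the 11 positive calls 8 were kept and those of Eif2s2, Eif4e and Eif4g2 ended, while 3 were new. Eif3g had the smallest adjusted p by limma (interaction -1.89, standard error 0.25, adjusted p = 0.000131): it was higher in each single knockout and near WT in DKO. Eif4e3 followed (1.31, standard error 0.21, adjusted p = 0.000473), and its DKO libraries lay above all MycKO libraries. Without WT4 the interactions were -1.93 (adjusted p = 2.49e-05) for Eif3g and 1.36 (adjusted p = 0.000115) for Eif4e3. Eif4ebp1 (-1.62), Eef1d (-0.91), Eif5a (-0.89), Eif3b (-0.84) and Eif1b (-0.75) were next among the negative values. Besides Eif4e3, Eif1a (1.35), Eif5a2 (1.20), Eif5 (1.09), Eif3c (0.96) and Eif4g2 (0.92) led the positive values. Without WT4 the interaction was called for 27 members, 10 above and 17 below 0, and 20 of them were shared.

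Many calls depended on single libraries. Against WT, calls kept in 3 or fewer of 6 fits with a library left out were in primary cells Eif2s2 for MycKO, and Eif4g2, Eif4h and Eif5b for DKO. In immortalized MycKO they were Eef1a1, Eif2b2, Eif3a, Eif3j2, Eif3m, Eif4e, Eif4g2 and Eif5b. In immortalized MlxKO they were Eif3e, Eif3j2, Eif3m, Eif4a2 and Eif6. In immortalized DKO they were all calls but that of Eif4b. For DKO against MycKO they were Eef1akmt4, Eif2b2, Eif3j1 and Eif4h in primary and Eif3c, Eif3g and Eif4e2 in immortalized cells. Interactions kept in 6 or fewer of 12 such fits were both primary calls and those of Eif2b5, Eif2s2, Eif4e, Eif4e2, Eif4g1 and Eif5a in immortalized cells.

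Settings ended further calls against WT. With only the groups compared, those of Eef1a1, Eef2kmt, Eif2b1, Eif2b2, Eif2d, Eif2s2, Eif3a, Eif3j2, Eif3m, Eif4e, Eif4e2, Eif4ebp2, Eif4g2 and Eif5b ended in immortalized MycKO. It also ended those of Eif3e, Eif3j2, Eif4a2 and Eif6 in immortalized MlxKO, all but Eef1b2 and Eif4b in immortalized DKO, and Eif2b3 and Eif2s2 in primary MycKO. Library-total scaling ended those of Eef2k, Eif1, Eif3c, Eif3e, Eif3j2, Eif3m and Eif4a2 in immortalized MlxKO. Without a filter on low values, Eef1a1, Eif3a, Eif3j2, Eif3m, Eif4e and Eif4g2 were not called in immortalized MycKO, Eif3e, Eif3j2 and Eif4a2 in MlxKO, and Eif4g2, Eif4h and Eif5b in primary DKO.

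Sequence composition was tied to the immortalized differences. Across the 59 members (genes, not independent replicates), Pearson's r between log2 fold change and GC content of the transcript was 0.74 in immortalized MlxKO, 0.55 in MycKO and 0.44 in DKO. Over all 12863 genes with a known transcript it was 0.49, 0.31 and 0.30 in the same order. For the members in primary cells r was 0.21 after loss of Myc, -0.46 after loss of Mlx and 0.18 after loss of both. Over all 13087 primary genes with a known transcript it was 0.17, -0.07 and 0.20 in the same order. For the immortalized interaction r was -0.67 across the members and -0.36 over all genes. Eif5a2 and Eif1a, lower in immortalized MlxKO, have AU-rich transcripts, whereas Eif3g has a GC-rich one. A setting that takes GC content and length out was added after the data were seen. With it immortalized MycKO again had 25 members called, 3 higher and 22 lower, but only 15 were the same. The calls that ended were Eif1b, Eif2b2, Eif2d, Eif3a, Eif3j2, Eif4e, Eif4e2, Eif4g2, Eif5 and Eif5b. In immortalized MlxKO those of Eif3b, Eif3e, Eif3j2, Eif4a2, Eif4e and Eif6 ended, in primary MycKO those of Eif1a, Eif2b3, Eif2s2, Eif3k and Eif4g3, and in primary DKO that of Eif4g3. Libraries of a group also differed in how their deviations from gene means sloped with GC content. In log2 per 10% of GC content, slopes were 0.145, -0.107 and 0.165 in primary MycKO9, MycKO10 and MycKO11. They were 0.114, -0.121 and -0.117 in immortalized DKO13, DKO14 and DKO15. In each other group the slopes of all libraries had the same sign. What lay behind the slopes was not tested. Between the groups, a bias of the libraries and a true link of GC content with regulation cannot be told apart.

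Some members share sequence with other genes. Of the 50-base stretches of Eif3j2, 91.9% occur in other genes, most of them in Eif3j1, so the values of these paralogs cannot be told apart fully. The shares were 27.3% for Eef1g, 22.8% for Eif4a1, 17.0% for Eef1a1 and 15.5% for Eif1, largely from processed copies. All of these shares count the same strand only. On the opposite strand, for example, 50.1% of the stretches of Eef2kmt occur in Alg1, 26.9% of those of Eif2b1 in Ddx55 and 24.4% of those of Eif1ad in Banf1. If counting did not use the strand, values of such members could include reads of these neighbors.

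Promoter sequences were looked at because Myc and Mlx dimers are known to bind the E-box CACGTG, a palindrome that reads the same on both strands. An entry of 250 bases before the transcription start was found for 48 members, 45 of them tested. Some genes have several entries, and a gene was counted where any of them held the E-box. Of these, 1 of 2 entries of Eif4e, 3 of 6 of Eif5a and 1 of 3 of Eef2k held it. The E-box was present in 13 of the 48 (27.1%), against 6.86% of 27025 genes with an entry and 9.77% of 10560 tested genes with an entry. In primary MycKO, 7 of the 13 members with an E-box were called lower, with a median of -0.29, and 20 of the 32 tested without it, with a median of -0.30. In DKO these were 10 of 13 (median -0.39) and 24 of 32 (median -0.38). A match describes the sequence only, and binding was not measured. No entry matched Eef1akmt1, Eef1akmt3, Eef1d, Eef1g, Eif1a, Eif2b3, Eif3e, Eif3h, Eif3i, Eif3j2, Eif4e3, Eif4ebp1, Eif4g2 and Eif6 among the tested members. The E-box was also present for Eef1akmt4, Eef1aknmt, Eef2k, Eif1b, Eif3f, Eif3k and Eif4h, which are not printed. Below is 1 entry with the E-box for each of the other 6, a selection from the eIF4, eIF5A and elongation factors, from RefSeq on build GRCm38.p6, written 5' to 3' toward the transcription start with the E-box in capitals. They are Eif4e (chr3:138527018-138527267, plus strand), Eif4a1 (chr11:69672424-69672673, minus strand), Eif5a (chr11:69921387-69921636, minus strand), Eif5a2 (chr3:28781027-28781276, plus strand), Eef2 (chr10:81176381-81176630, plus strand) and Eif4g1 (chr16:20672477-20672726, plus strand).
Eif4e: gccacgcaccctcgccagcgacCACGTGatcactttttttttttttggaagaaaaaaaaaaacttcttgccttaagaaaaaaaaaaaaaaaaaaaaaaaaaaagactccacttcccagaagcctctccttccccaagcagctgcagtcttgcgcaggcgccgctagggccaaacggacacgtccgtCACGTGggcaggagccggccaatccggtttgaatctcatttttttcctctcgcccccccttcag
Eif4a1: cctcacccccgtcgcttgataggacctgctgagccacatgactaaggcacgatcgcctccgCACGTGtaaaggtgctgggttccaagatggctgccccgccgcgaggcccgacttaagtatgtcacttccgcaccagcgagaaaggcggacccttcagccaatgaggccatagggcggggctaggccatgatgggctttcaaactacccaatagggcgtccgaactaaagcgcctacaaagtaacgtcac
Eif5a: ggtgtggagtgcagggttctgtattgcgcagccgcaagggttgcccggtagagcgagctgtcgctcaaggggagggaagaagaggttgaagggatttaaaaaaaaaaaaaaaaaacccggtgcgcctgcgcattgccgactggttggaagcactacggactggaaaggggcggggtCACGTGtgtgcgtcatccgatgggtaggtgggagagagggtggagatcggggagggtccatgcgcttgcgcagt
Eif5a2: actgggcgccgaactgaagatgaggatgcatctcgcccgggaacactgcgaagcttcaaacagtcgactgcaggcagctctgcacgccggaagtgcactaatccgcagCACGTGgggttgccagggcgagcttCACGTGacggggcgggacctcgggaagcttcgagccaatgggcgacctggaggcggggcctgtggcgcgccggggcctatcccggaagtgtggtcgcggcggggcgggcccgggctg
Eef2: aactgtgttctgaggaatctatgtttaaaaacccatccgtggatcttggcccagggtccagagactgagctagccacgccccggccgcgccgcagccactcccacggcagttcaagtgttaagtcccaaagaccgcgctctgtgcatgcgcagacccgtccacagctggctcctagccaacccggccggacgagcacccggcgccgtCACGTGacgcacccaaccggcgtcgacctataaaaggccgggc
Eif4g1: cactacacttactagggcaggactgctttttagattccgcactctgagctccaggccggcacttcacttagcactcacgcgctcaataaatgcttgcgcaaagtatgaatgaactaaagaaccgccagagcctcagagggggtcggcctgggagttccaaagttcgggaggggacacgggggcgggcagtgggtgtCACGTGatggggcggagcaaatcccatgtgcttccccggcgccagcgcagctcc

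Genes that work with the members were examined as 7 further lists of 51 genes, among them release factors, poly(A)-binding proteins, helicases, eIF2 kinases, mTORC1 and the enzymes that make hypusine. In primary MycKO 20 of the 51 (39.2%) were called, 2 of them higher, against 42.3% of all genes tested, and in DKO 26 (51.0%), 3 of them higher, against 49.5%. Pabpc1, for the poly(A)-binding protein that meets eIF4G, held 1464, 1451 and 1450 CPM in WT, 1373, 1364 and 1417 in MlxKO, 1000, 1159 and 962 in MycKO, and 857, 860 and 821 in DKO in primary cells. WT libraries were highest for Pabpc1 and did not overlap with any knockout (-0.49, standard error 0.07, adjusted p = 1.96e-05 by limma in MycKO and -0.78, adjusted p = 9.07e-08 in DKO). Rptor, for the subunit of mTORC1 that recruits substrates, held 53.1, 56.2 and 54.9 CPM in WT, 56.4, 58.8 and 47.8 in MlxKO, 62.5, 61.9 and 64.4 in MycKO, and 66.5, 73.4 and 64.4 in DKO. All MycKO and DKO libraries of Rptor lay above WT, with a call in DKO (0.31, standard error 0.08, adjusted p = 0.00371). In immortalized MycKO 20 of 51 (39.2%) were called, 7 higher, against 48.0% of all genes. Pdcd4, whose product inhibits eIF4A, held 43.3, 48.2 and 20.1 CPM in WT, 31.4, 26.3 and 25.6 in MlxKO, 7.41, 6.81 and 7.15 in MycKO, and 11.7, 13.3 and 9.61 in DKO in immortalized cells. MycKO and DKO lay below all WT libraries, and MlxKO overlapped with WT (-2.14, standard error 0.26, adjusted p = 4.48e-05 in MycKO). Dohh, for the last enzyme of hypusine synthesis on eIF5A, held 18.9, 25.6 and 27.4 CPM in WT, 35, 51.8 and 50.4 in MlxKO, 53.2, 41 and 43.1 in MycKO, and 40, 29.4 and 32.7 in DKO. All knockout libraries lay above all WT libraries, with calls in MycKO (0.91, standard error 0.19, adjusted p = 0.00199) and MlxKO (0.90, adjusted p = 0.00354).

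Several limits apply. CPM are relative to a library and here already scaled between libraries, so a lower value does not tell whether a cell held less mRNA, and no spike-in is described in the sources used here. In the data used here mRNA was measured, not protein, phosphorylation or translation. Apart from these data, the paper reports lower puromycin incorporation, a measure of protein synthesis, in primary MycKO and DKO cells. Differences between embryo pools, exposure to 4OHT and loss of the gene cannot be told apart. The same holds for the growth arrest of primary MycKO and DKO cells and for the tetraploidy of immortalized MycKO cells. Marker genes moved with the groups, and immortalized results lean on WT4 and on GC content. Primary and immortalized cells were not tested against each other. Whether counting used the strand is not given in the sources used here.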

How the data were processed

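From poly-A RNA the authors made strand-specific libraries for Illumina NovaSeq sequencing, and used CLC Genomics Workbench with GRCm39 to count reads per gene. They deposited the signal as CPM, with primary and immortalized MEFs in separate tables. The deposited signal summed to between 915691 and 1077213 per library, so a scaling between libraries was already in it and it was not rescaled. In every library 100% of the values were whole multiples of a smallest step, within a tolerance of 0.001, which gave back the reads. Depth lay between 15986856 and 20966163 reads on genes, and the floor of 3 reads between 0.145 and 0.196 CPM, which covers counting error only.

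The members and lists were chosen with earlier results of these data known. Genes that reached 1 CPM in 3 or more of the 12 libraries of a table were tested on log2(CPM + 1) with limma 3.58.1 in R 4.3.3. The fit held all 4 groups and a prior whose variance follows the mean, with 2-sided tests and Benjamini-Hochberg adjustment over 13101 primary or 12880 immortalized genes. An exact permutation test of 3 libraries against 3 cannot go below a 2-sided p of 0.10, so overlap of libraries is stated for named genes given with an adjusted p between groups. Other settings were DESeq2 1.42.0 and edgeR 4.0.16 on reads, a pseudocount of 0.1, no filter, a filter at a mean of 5 CPM, other scalings, a robust prior, only the groups compared, and each library left out. Summed copies, and GC content and length taken out, were added after the data were seen. The steps were tested on simulated data. Values in every library are given for the knocked-out genes, for the member of each role with the largest change among those called in MycKO or DKO against WT, for the 2 members with the smallest adjusted p of each interaction where called, for paralogs, and for the further genes with the largest rise and fall. Positions, lengths and GC content came from GENCODE vM39. Python 3.11.15 with matplotlib 3.10.9 drew the figures.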

Additional observations from a re-analysis of the deposited data

Results flagged for a closer look

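Each result here differed between groups, and what lay behind it was not tested. For the first set the effect of losing Mlx differed with and without Myc in a test of the interaction, with an adjusted p under 0.05 in limma. In primary cells these were Eif2s2 (-0.35) and Eif3c (-0.29), 2 of 59 members tested, against 13.5% of all genes. In immortalized cells they were 21 of 59, against 47.4% of all genes. In immortalized cells the interaction was below 0 for Eif3g (-1.89), Eif4ebp1 (-1.62), Eef1d (-0.91), Eif5a (-0.89), Eif3b (-0.84), Eif1b (-0.75), Eif6 (-0.69), Eef1g (-0.65), Eif4g1 (-0.59) and Eif4e2 (-0.51). It was above 0 for Eif2b5 (0.37), Eef2k (0.41), Eif1 (0.57), Eif4e (0.72), Eif2s2 (0.72), Eif4g2 (0.92), Eif3c (0.96), Eif5 (1.09), Eif5a2 (1.20), Eif4e3 (1.31) and Eif1a (1.35). With GC content and length taken out, a setting added after the data were seen, 13 immortalized interactions were called, 11 above and 2 below 0. Of the negative calls above, those of Eef1d, Eif5a, Eif3b, Eif1b, Eif6, Eef1g, Eif4g1 and Eif4e2 ended with it, with Eif4e2 turned to 0.16 (adjusted p = 0.418 by limma), and of the positive calls those of Eif2s2, Eif4e and Eif4g2. With library-total scaling the calls of Eif2s2, Eif4e, Eef2k, Eif1 and Eif2b5 ended. With 1 of the 12 libraries left out, the immortalized calls were kept in 3 of 12 fits for Eif5a and Eif2b5, 4 for Eif4g1, 5 for Eif4e2 and Eif2s2, and 6 for Eif4e. The primary calls were kept in 5 of 12 fits for Eif2s2 and 4 for Eif3c.

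For the second set all knockout libraries lay on one side of all WT libraries in primary cells and on the opposite side in immortalized cells, and the difference was not tested. Members whose fold changes differ in sign but whose libraries overlap with WT are not in this set. Such separation is common: in MlxKO 14% of all genes tested lay above and 14.4% below WT in primary cells, and 23.9% above and 25.2% below in immortalized cells. In DKO 30.8% lay below WT in primary and 19.2% above in immortalized cells. Only Eif3c in immortalized MlxKO and Eif2b2 in primary DKO were called, and the Eif3c call ended with library-total scaling. Eif3c in MlxKO stood at 0.15 in primary and -0.52 in immortalized cells. Eif4g1 in MlxKO stood at -0.16 in primary and 0.41 in immortalized cells. Eif2b2 in DKO stood at -0.30 in primary and 0.21 in immortalized cells.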

How the results depend on the processing

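No paired analysis was possible because nothing ties the numbers in the column names to the replicate numbers of the labels. Of 3850 values of named genes under other settings, 3702 kept their side of the threshold, 67 lost a call, 76 gained a call and 5 reversed. Among the 3702, values that were not called may have changed direction. Of 2520 values with a library left out, 2319 were the same, 143 lost a call and 58 gained a call. Depth was sufficient for the 59 members tested, all above the floor of 3 reads, and of the other 22, at most 0.293 CPM in any library, 12 were at 0 throughout.

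Counts of called members moved between settings, most of those given here by over 1.5 times, and the cause was not tested. In primary MlxKO the count of 0 by limma became 1 with median-ratio scaling, 1 with a robust prior, 1 with edgeR, 4 with DESeq2 and 8 with GC content and length taken out, and 9 members had an unadjusted p under 0.05. Primary DKO against MycKO went from 8 to 20 with GC content and length taken out. The primary interaction went from 2 to 0 by limma without a filter (6 had an unadjusted p under 0.05 with it), 1 with median-ratio scaling, 1 with edgeR, 3 with DESeq2 and 5 with GC content and length taken out. Immortalized MycKO went from 25 to 11 with only the groups compared. Immortalized DKO went from 9 to 4 without a filter and to 2 with only the groups compared. Immortalized DKO against MycKO went from 6 to 11 with only the groups compared. The immortalized interaction went from 21 to 13 with GC content and length taken out. With a library left out, primary DKO against MycKO reached 18 without MycKO10, immortalized MycKO had 16 without WT2, and immortalized DKO reached 14 without WT3. The highest counts with a library left out were close to the full count for immortalized MycKO (26 without WT3) and for immortalized DKO against MycKO (7 without MycKO11).

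Medians of the roles moved with library-total scaling. In primary MycKO they became -0.30 for start codon factors, -0.43 for eIF2 and eIF2B, -0.46 for eIF3, -0.19 for eIF4 and -0.54 for elongation factors. In primary DKO they became -0.44 for eIF2 and eIF2B, -0.55 for eIF3 and -0.27 for eIF4. In immortalized MlxKO they became -0.17 for start codon factors, 0.0110 for eIF3, 0.12 for eIF4 and 0.29 for eIF4E binders. For the immortalized interaction they became 0.29, -0.0873, -0.16 and -0.48 in the same order. The filter at a mean of 5 CPM gave -0.35 for modifiers in primary DKO.

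With GC content and length taken out, 5 values were counted as reversed, and the cause was not tested. In immortalized MlxKO, Eif4a3 became -0.27 (adjusted p = 0.0456 by limma), Eif4e2 -0.41 (adjusted p = 0.0163) and Eif4g3 -0.29 (adjusted p = 0.03). For the immortalized interaction, Eif4a3 became 0.38 (adjusted p = 0.0301) and Eif4e2 0.16 (adjusted p = 0.418).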

Other observations

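Thy1, a fibroblast marker, stood at 14.9, 21.1 and 123 CPM in immortalized WT, 147, 171 and 164 in MlxKO, 640, 633 and 635 in MycKO, and 10.3, 10.2 and 10.7 in DKO libraries. Its MycKO libraries lay far above all others, and its MlxKO libraries above all WT libraries, whereas the fibroblast sum was lower in MycKO and in MlxKO than in WT.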
